A study of Mus musculus with 12 samples.

Results

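The transcripts of 10 genes of extracellular proteolysis were followed in tumour-associated macrophages (TAMs): the matrix metalloproteinases Mmp8, Mmp9, Mmp12, Mmp13, Mmp14 and Mmp19, the tissue inhibitors of metalloproteinases Timp1 and Timp2, the urokinase gene Plau and the urokinase receptor gene Plaur. They were chosen by name, with earlier results of these data known. All 10 were found among the 24781 rows of the deposited table, and 8 had enough molecules to be tested. TAMs came from wild-type mice carrying intradermal tumours of MC38, a mouse colon adenocarcinoma line. The mice were injected intraperitoneally, from the day before inoculation and then every other day, with DMSO (the solvent) or with picrotoxin, an antagonist of the GABA-A receptor, so that the comparison asks how blocking this receptor changes the macrophages of the tumour. Wild-type mice were C57BL/6J or C57BL/6N, of both sexes and aged 2 to 5 months, and which of these gave the libraries is not stated. On day 7, 100 CD45+CD11b+F4/80high cells were sorted for each library, with 6 libraries from DMSO-treated mice and 6 from picrotoxin-treated mice. The methods assign 1 mouse to each library, but a figure legend counts fewer mice than libraries without naming which share a mouse, and all p-values here would be too small if some do. Picrotoxin was given to the whole animal, so the libraries do not tell which cells it acted on.

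Matrix metalloproteinases (MMPs) are zinc-dependent enzymes that cut collagens, elastin and other proteins outside the cell. Most are secreted as inactive precursors, MMP14 sits in the plasma membrane, and TIMPs bind the active site and block it. Urokinase, held at the cell surface by its receptor, turns plasminogen into plasmin, a broad protease that also activates MMP precursors, and in tumours macrophages and fibroblasts are both known sources of these proteins. The transcripts measured here give the level of mRNA and not of enzyme activity, which is set largely by activation and inhibition of the proteins.

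All positions are from GENCODE on GRCm38 (mm10), and each member is annotated as a protein-coding gene. Mmp13 (chr9:7272514-7283331), Mmp12 (chr9:7344381-7369499) and Mmp8 (chr9:7558456-7568485) lie on the plus strand within 1 cluster of 10 MMP genes at chr9:7272514-7699585. Of that cluster 4 genes, Mmp1a, Mmp1b, Mmp7 and Mmp27, had 0 molecules in the 12 libraries, Mmp10 had 2 and Mmp20 had 1. Mmp9 lies at chr2:164940780-164955850, Mmp14 at chr14:54431612-54445364, Mmp19 at chr10:128790910-128800824, Timp1 at chrX:20870166-20874735, Plau at chr14:20836660-20843385 and Plaur at chr7:24462484-24475968, all on the plus strand, and Timp2 lies at chr11:118301069-118355740 on the minus strand. Timp1 lies inside Syn1, which is on the opposite strand and had 3 molecules, and Timp2 overlaps Cep295nl, which is on the same strand and had 4.

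The promoters of this family are a textbook case for AP-1, a factor made of Fos and Jun proteins that many MMP and urokinase system genes carry a site for. In RefSeq promoters of GRCm38.p6, which were found for 7 of the 10 members, the letters TGANTCA (read on both strands) stood within the 250 bases before the start in Mmp13 and Plaur, and in Mmp12 only before the second of its annotated starts. This motif is present in 6.75% of all 32851 RefSeq promoters over the same window. The last 100 bases before the start follow for Mmp13 (chr9:7272414-7272513, plus strand) and Plaur (chr7:24462383-24462482, plus strand), which hold the motif at -35 to -29 and -69 to -63, and for the inhibitor gene Timp1 (chrX:20870066-20870165, plus strand), whose 250 bases do not hold these letters. Capitals mark the match.
Mmp13: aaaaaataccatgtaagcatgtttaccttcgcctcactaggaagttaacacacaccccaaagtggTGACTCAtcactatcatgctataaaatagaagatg
Plaur: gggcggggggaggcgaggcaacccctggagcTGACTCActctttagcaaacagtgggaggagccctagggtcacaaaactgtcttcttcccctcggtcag
Timp1: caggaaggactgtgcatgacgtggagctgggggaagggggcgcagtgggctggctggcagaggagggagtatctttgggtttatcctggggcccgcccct
Mmp13 also carried TATAAA, the letters of a TATA box, at -16 to -11, which 12.4% of promoters hold. AGGAAG (read on both strands), the core of PEA3 sites of ETS factors, was present for 6 of the 7 members with a promoter. These were Mmp8, Mmp12, Mmp13, Mmp14, Plaur and Timp1, and in Mmp12 it stood only before the first annotated start. Of all promoters 29.5% hold it, a share counted by promoter and not by gene.

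Values are normalised molecules, that is, counts of molecular barcodes in a library divided by its size factor. Library totals ran from 201697 to 309617 molecules, so a count of 0 allows a share of up to 0.00149% of molecules (3 molecules) in the smallest library and 0.000969% in the largest. Macrophage markers made up 1.58% ± 0.198 (SD, n = 6) of molecules in DMSO and 1.66% ± 0.0821 (n = 6) in picrotoxin libraries (exact two-sided permutation p = 0.359), and all 10 of them were detected. Other facts of the libraries bear on the genes below. Markers of fibroblasts and matrix summed to 839, 227 and 158 molecules in DMSO 5, DMSO 3 and DMSO 6, against 19 to 34 in the other DMSO libraries and 9 to 64 in picrotoxin libraries. The same DMSO libraries held the lowest shares of macrophage markers, 1.49% in DMSO 5, 1.31% in DMSO 3 and 1.42% in DMSO 6. Elsewhere these shares ran from 1.52% to 1.8%. The labels give no batch. An earlier reading of these data set libraries 1 and 2 of each group apart, and values of libraries 3 to 6 alone are therefore given where they change a result. Neutrophil markers were near 0, with 4 to 10 molecules in a library and 7 of 10 genes, S100a9, Ly6g and Elane among them, at 0 in all libraries.

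None of the 8 tested members had an adjusted p under 0.05 (edgeR quasi-likelihood test, Benjamini-Hochberg over 9580 genes, lowest adjusted p = 0.41), where 0.0522% of all tested genes did, and in DESeq2 the adjusted p was 0.992 for each. Without adjustment, 3 of 8 had a p under 0.05. Mmp13 and Timp2 were lower and Mmp19 was higher with picrotoxin. This share of 37.5% stood against a background of 7.72% of all tested genes, 4.05% lower and 3.67% higher with picrotoxin. The members were chosen with earlier results of these data known, so the 2 shares side by side are a description and not a test. The rule of the study, an unadjusted p under 0.05 in DESeq2, picked the same 3 members, against 3.82% of all genes. With all 3 DMSO libraries of high matrix content left out (3, 5 and 6, an alternative added after seeing the data), 0 of the 8 members had an unadjusted p under 0.05, against 4.95% of 9348 genes. This fit has fewer DMSO libraries and so less power. In it the log2 fold change was 0.01 for Timp2, -0.66 for Mmp13 and 0.65 for Mmp19, against -0.44, -1.28 and 0.72 with all libraries. The 3 libraries left out hold the highest values of both Timp2 and Mmp13, so these 2 log2 fold changes had to rise without them. For these genes the fit cannot tell matrix content from the loss of their highest values. The median log2 fold change of the 8 members was 0.09 against -0.01 over all tested genes.

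**Figure D1:**
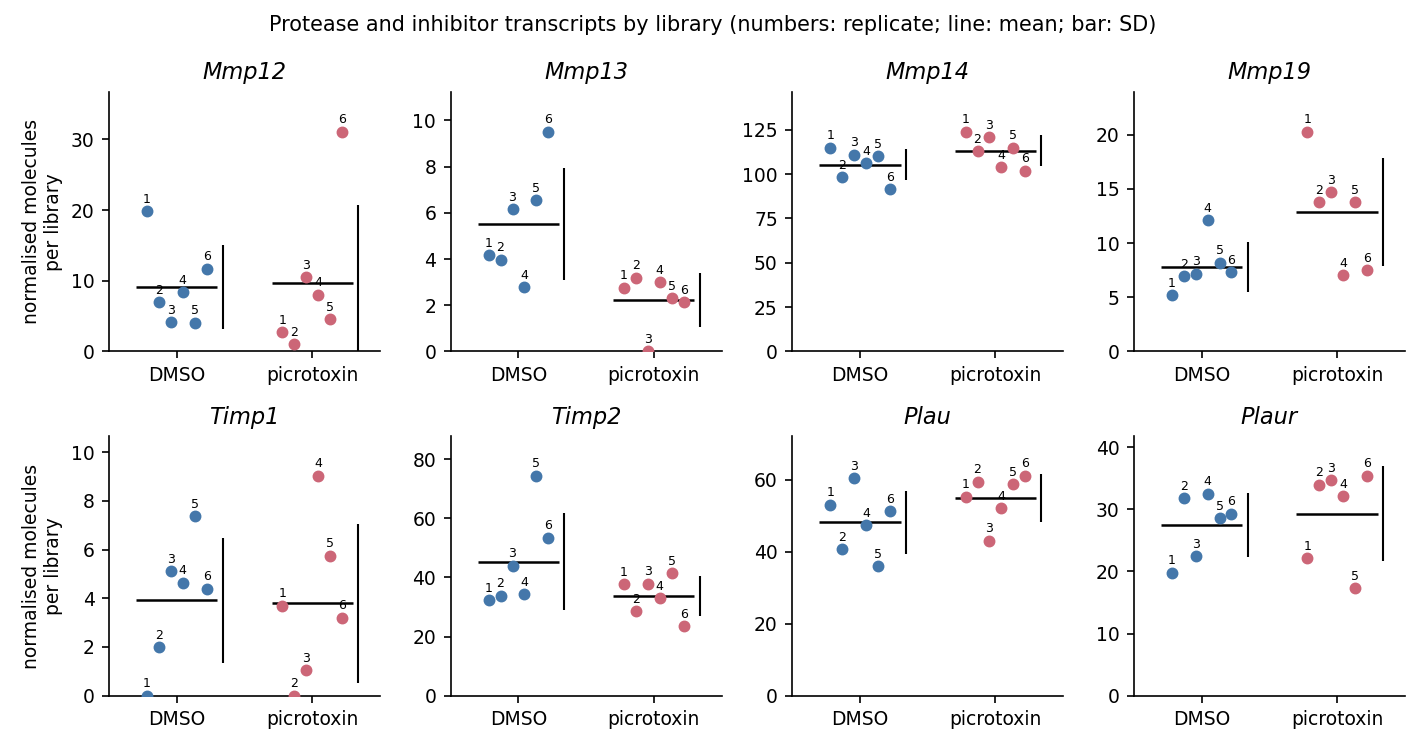
Normalised molecules (vertical axes from 0) of the 8 tested members in each of 6 DMSO (blue) and 6 picrotoxin (red) libraries. Small numbers are replicate numbers, horizontal lines are means and vertical bars are 1 SD, ended at 0 where they would pass it. The groups overlap for all 8 genes, Mmp13 is at 3.19 or less in every picrotoxin library, and picrotoxin 6 stands alone for Mmp12 at 31.1.

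Among the collagenases, Mmp13, which encodes collagenase 3, an enzyme that cuts fibrillar collagen, was measured in 11 of 12 libraries. DMSO libraries 1 to 6 held 4.16, 3.97, 6.15, 2.78, 6.54 and 9.52 normalised molecules of Mmp13, and picrotoxin libraries 2.76, 3.19, 0, 3.01, 2.30 and 2.14. Of the 6 DMSO libraries 5 were above every picrotoxin library and DMSO 4 lay among them, so the groups overlapped. Means were 5.52 ± 2.42 (SD, n = 6) and 2.23 ± 1.17 (n = 6). The log2 fold change of Mmp13 was -1.28 ± 0.45 (SE, 95% interval -2.20 to -0.37), with p = 0.00739 and an adjusted p of 0.41 in edgeR, and the exact permutation test over libraries gave p = 0.00649. The counts behind it are small, 38 molecules in DMSO and 13 in picrotoxin libraries, and within the groups they varied no more than counting noise would give (chi-square per degree of freedom 0.906). The DMSO libraries with the most Mmp13, 6, 5 and 3, are also those with the most matrix markers. Without these 3 libraries the log2 fold change of Mmp13 was -0.66, its unadjusted p was no longer under 0.05 and the adjusted p was 0.958. As they hold the highest values of Mmp13, leaving them out had to shrink its difference whatever their matrix content. Without DMSO 3 and 5, or without any 1 library, its p stayed under 0.05. With a score of the fibroblast and matrix markers as a term in the fit, the log2 fold change of Mmp13 was -1.03, against -1.28 without this term. Beyond these fits, the part of other cells in the difference was not tested.

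Mmp8 encodes the collagenase of neutrophils and was at the edge of detection. It had 2 molecules in DMSO libraries, 1 each in DMSO 3 and DMSO 4, and 8 in picrotoxin libraries, of which 4 came from picrotoxin 2 and 1 each from picrotoxin 1, 3, 4 and 5. Its mean of 0.861 normalised molecules was below the limit of 1 for testing. The exact permutation test of Mmp8 gave p = 0.0671. With no filter beyond 1 count, edgeR gave it a log2 fold change of 1.82, with an unadjusted p of 0.046 (against the exact permutation p of 0.0671) and an adjusted p of 0.634. Mmp9, gelatinase B, which cuts denatured collagen and collagen of basement membranes, had 5 molecules in all, 2 in DMSO and 3 in picrotoxin libraries, never more than 1 in a library (exact permutation p = 0.318). A difference in Mmp9 was not detectable at this depth.

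Mmp12 encodes macrophage elastase, a protease made mainly by macrophages that cuts elastin. DMSO libraries 1 to 6 held 19.8, 6.95, 4.10, 8.35, 4.09 and 11.7 normalised molecules of Mmp12, and picrotoxin libraries 2.76, 1.06, 10.5, 8.03, 4.60 and 31.1. The highest and the lowest library were both picrotoxin libraries, and the spread within groups was the widest among the 10 members relative to counting noise, with a chi-square per degree of freedom of 8.01. The log2 fold change of Mmp12 was 0.08 ± 0.45 (95% interval -0.83 to 0.99, adjusted p = 0.986 in edgeR; exact permutation p = 0.926), an interval that runs from 1.77-fold lower to 1.99-fold higher. Its sign depended on single libraries. The log2 fold change of Mmp12 was -0.74 (adjusted p = 0.792) without picrotoxin 6, -0.07 without DMSO 3 and -0.09 without DMSO 5, and in replicates 3 to 6 alone it was 0.91, with an unadjusted p under 0.05 and an adjusted p of 0.485. A stretch of 160 bases of Mmp12 is shared with Mmp1b on the opposite strand, which had 0 molecules.

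Mmp14 encodes the membrane-anchored MT1-MMP, which cuts collagen at the cell surface and activates MMP2. It was steady across libraries, from 91.5 to 115 normalised molecules of Mmp14 in DMSO (median 108) and from 102 to 124 in picrotoxin libraries (median 114). Within groups it varied by no more than counting noise (chi-square per degree of freedom 0.783), with coefficients of variation of 8.38% and 7.88%. Its log2 fold change was 0.12 ± 0.10 (95% interval -0.09 to 0.33, adjusted p = 0.848 in edgeR; exact permutation p = 0.149), so the interval reaches up to a 1.26-fold higher level with picrotoxin.

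Mmp19 encodes a secreted MMP of basement membrane proteins. DMSO libraries 1 to 6 held 5.20, 6.95, 7.17, 12.1, 8.18 and 7.32 normalised molecules of Mmp19, and picrotoxin libraries 20.3, 13.8, 14.7, 7.02, 13.8 and 7.50. Of the picrotoxin libraries 4 were above every DMSO library, while picrotoxin 4 and 6 lay within the DMSO range. Means were 7.81 ± 2.30 (SD, n = 6) and 12.8 ± 4.96 (n = 6), a log2 fold change of 0.72 ± 0.28 (95% interval 0.16 to 1.29). For Mmp19 edgeR gave p = 0.0132 and an adjusted p of 0.481, and the exact permutation test p = 0.0325. The difference in Mmp19 rested in part on picrotoxin 1, without which the log2 fold change was 0.51 (adjusted p = 0.704), and in replicates 3 to 6 alone it was 0.32 (adjusted p = 0.852). In neither, nor without DMSO 3, 5 and 6 (0.65), was the unadjusted p of Mmp19 under 0.05. Mmp19 shares 789 bases with Tmem198b, a gene on the opposite strand with 32 molecules in all, and the antisense gene Gm47093 covers it. Whether the counting used strand is not stated, so reads of these genes cannot be told apart and the count of Mmp19 is uncertain.

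Of the inhibitors, Timp2 encodes the TIMP that both blocks MMPs and, bound to MMP14, helps to activate MMP2. DMSO libraries 1 to 6 held 32.3, 33.8, 44.0, 34.3, 74.4 and 53.5 normalised molecules of Timp2, and picrotoxin libraries 37.8, 28.7, 37.9, 33.1, 41.4 and 23.6. Only DMSO 3, 5 and 6 were above every picrotoxin library, and the other DMSO libraries lay within the picrotoxin range. Means of Timp2 were 45.4 ± 16.4 (SD, n = 6) and 33.7 ± 6.66 (n = 6), with a log2 fold change of -0.44 ± 0.18 (95% interval -0.81 to -0.06). For Timp2 edgeR gave p = 0.0228 and an adjusted p of 0.545, whereas the exact permutation test gave p = 0.132. The 3 DMSO libraries with high Timp2 are the 3 with high matrix markers. Without DMSO 5 the log2 fold change of Timp2 was -0.24 (adjusted p = 0.873), without DMSO 3 and 5 it was -0.21 (adjusted p = 0.955), and without DMSO 3, 5 and 6 it was 0.01 (adjusted p = 0.994). With the score of matrix markers as a term in the fit it was -0.09 (adjusted p = 0.97). The unadjusted p of Timp2 was above 0.05 in each of these 4 fits. The 3 fits with libraries left out dropped high values of Timp2, so they had to shrink its difference whatever the matrix content. In a sorted bulk sample, fewer cells of a type and less RNA per cell cannot be told apart.

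Timp1 encodes a secreted TIMP that is induced by inflammatory signals in many cells. It was at 0 in DMSO 1 and in picrotoxin 2, and elsewhere it ran from 1.99 to 7.36 normalised molecules of Timp1 in DMSO and from 1.05 to 9.03 in picrotoxin libraries. Means were 3.92 ± 2.57 (SD, n = 6) and 3.79 ± 3.27 (n = 6), with a log2 fold change of -0.08 ± 0.52 (95% interval -1.13 to 0.98, adjusted p = 0.99 in edgeR; exact permutation p = 0.939). With 49 molecules in all, the interval of Timp1 ran from 2.19-fold lower to 1.97-fold higher, and its sign turned with the matrix score as a term (0.68, adjusted p = 0.938).

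**Figure D2:**
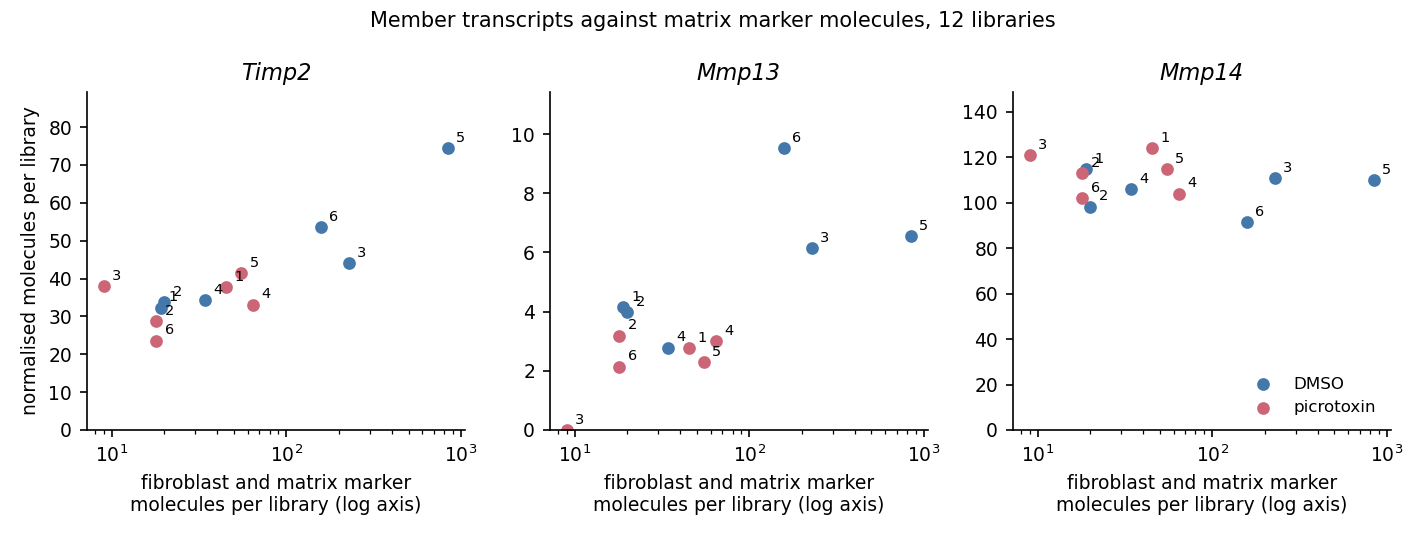
Normalised molecules of Timp2, Mmp13 and Mmp14 (vertical axes from 0) against the summed molecules of 13 fibroblast and matrix markers (horizontal log axis) in each of 12 libraries, DMSO in blue and picrotoxin in red, numbered by replicate. DMSO 3, 5 and 6 stand to the right and hold the highest values of Timp2 and Mmp13, while Mmp14 in these 3 libraries stays between 91.5 and 111.

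The urokinase system showed no difference beyond the spread between libraries. Plau, which encodes urokinase, ran from 36.0 to 60.4 normalised molecules in DMSO (median 49.3) and from 43.1 to 61.1 in picrotoxin libraries (median 57.0), and 5 of 6 picrotoxin libraries were above the DMSO mean. The log2 fold change of Plau was 0.21 ± 0.14 (95% interval -0.08 to 0.49, adjusted p = 0.777 in edgeR; exact permutation p = 0.162). Plaur, its receptor, ran from 19.8 to 32.5 normalised molecules in DMSO (median 29.0) and from 17.3 to 35.4 in picrotoxin libraries (median 33.0). Its log2 fold change was 0.10 ± 0.18 (95% interval -0.27 to 0.46, adjusted p = 0.951 in edgeR; exact permutation p = 0.617). The libraries with little Plaur were DMSO 1 and 3 and picrotoxin 1 and 5, so low values were found in both groups. The intervals reach up to a 1.41-fold higher level of Plau and a 1.38-fold higher level of Plaur with picrotoxin.

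The other genes of the pathway were taken from lists of 52 genes, of which 22 had enough molecules to be tested. None had an adjusted p under 0.05 in edgeR, and the lowest adjusted p was 0.309. Without adjustment 5 had a p under 0.05, with Mmp2, Mmp3, Eno1 and Bsg lower and Cd44 higher, which is 22.7% of the tested genes against 7.72% of all genes. Mmp2 and Mmp3 reached the limit for testing only through DMSO 5, so this share rests in part on that library. The lists too were chosen with earlier results of these data known. Without DMSO 5, 2 of 19 tested genes, Bsg and Cd44, had an unadjusted p under 0.05 in edgeR, against 6.4% of all genes. By the DESeq2 rule 3 passed, Eno1, Bsg and Cd44, where 3.82% of all genes did. The median log2 fold change of the 22 genes was -0.01, and 11 had a positive and 11 a negative sign.

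Of 17 other MMPs, 9 had no molecule in any library and 3 were tested. Mmp3, stromelysin 1, a known product of fibroblasts, had 63 molecules in DMSO 5 and 0 in each of the other 11 libraries. In DMSO 5 this was 0.0228% of molecules (Wilson 95% interval 0.0178 to 0.0291). Mmp2, gelatinase A, which MMP14 activates, had 18 molecules in DMSO 5, 5 in DMSO 3 and at most 2 in any other library. In edgeR the adjusted p was 0.309 for Mmp3 and 0.62 for Mmp2. Over the other fits it ran from 9.21e-13 to 1.0 for Mmp3, under 0.05 with no filter beyond 1 count and with a replicate block, and from 0.201 to 0.992 for Mmp2. The molecules of both came mostly or all from the libraries with the most matrix markers. Neither had enough molecules to be tested without DMSO 5, and the exact permutation test gave p = 0.455 for Mmp2. The edgeR values of Mmp3 rest on DMSO 5 alone, and DESeq2 gave Mmp3 no p-value. Mmp25, which encodes an MMP anchored to the membrane of leukocytes, had 2.53 ± 1.93 (SD, n = 6) and 3.96 ± 2.42 (n = 6) normalised molecules, with an adjusted p of 0.808 in edgeR and an exact permutation p of 0.32. None of the 4 other metalloproteinase inhibitors (Timp3, Timp4, Reck and A2m) had enough molecules to be tested.

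Of 11 other genes of the plasminogen system, 6 were tested. Eno1, a glycolytic enzyme that also binds plasminogen at the cell surface, was at 120 ± 20.7 (SD, n = 6) normalised molecules in DMSO and 95.6 ± 8.91 (n = 6) in picrotoxin libraries, and all 6 picrotoxin libraries were below the DMSO mean. The log2 fold change of Eno1 was -0.31 ± 0.12 (p = 0.0117, adjusted p = 0.471 in edgeR; exact permutation p = 0.0238), and without DMSO 5 it was -0.24 with an unadjusted p above 0.05 in edgeR. Eno1 and Eno1b are alike at 99.5% over 1736 bases, so the count of Eno1 is uncertain. Anxa2, which with S100a10 forms a plasminogen receptor, had a log2 fold change of -0.24 ± 0.13 (adjusted p = 0.727 in edgeR; exact permutation p = 0.139). Of 12 ADAM and ADAMTS genes, which encode related proteases that shed membrane proteins or cut proteoglycans, 8 were tested and 0 had an unadjusted p under 0.05, in edgeR and in DESeq2 alike. Adam8, which marks leukocytes, and Adam10, a general sheddase, gave log2 fold changes of -0.03 ± 0.15 (exact permutation p = 0.827) and 0.21 ± 0.13 (exact permutation p = 0.132).

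Among activators and surface partners of MMPs, 5 of 8 genes were tested. Bsg encodes basigin (CD147), a membrane protein known to induce MMPs in neighbouring cells. It ran from 50.1 to 77.7 normalised molecules of Bsg in DMSO (median 65.1) and from 30.5 to 59.2 in picrotoxin libraries (median 44.4), and all 6 picrotoxin libraries were below the DMSO mean. Its log2 fold change was -0.49 ± 0.15 (95% interval -0.80 to -0.19), with p = 0.00235 and an adjusted p of 0.309 in edgeR, and the exact permutation test gave p = 0.0152. The unadjusted p of Bsg was under 0.05 in all 12 fits that left out 1 library and in all 13 other alternatives, and without DMSO 3, 5 and 6 its log2 fold change was -0.42 (adjusted p = 0.936). Its adjusted p over all these fits ran from 0.0435, with no filter beyond 1 count, to 0.992. Cd44, a hyaluronan receptor that can hold MMP9 at the cell surface, ran from 87.2 to 136 normalised molecules in DMSO (median 103) and from 115 to 143 in picrotoxin libraries (median 128). All 6 picrotoxin libraries were above the DMSO mean of Cd44, with a log2 fold change of 0.26 ± 0.11 (p = 0.0273, adjusted p = 0.57 in edgeR; exact permutation p = 0.0411), and without DMSO 3, 5 and 6 it was 0.10 with an unadjusted p above 0.05 in edgeR. Furin, the protease that activates MMP14 inside the cell, had a log2 fold change of -0.22 ± 0.15 (adjusted p = 0.777 in edgeR; exact permutation p = 0.216). Without DMSO 3, 5 and 6, the alternative added after seeing the data, the log2 fold change of Furin was -0.47. Its unadjusted p was under 0.05 there and its adjusted p was 0.848 in edgeR.

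**Figure D3:**
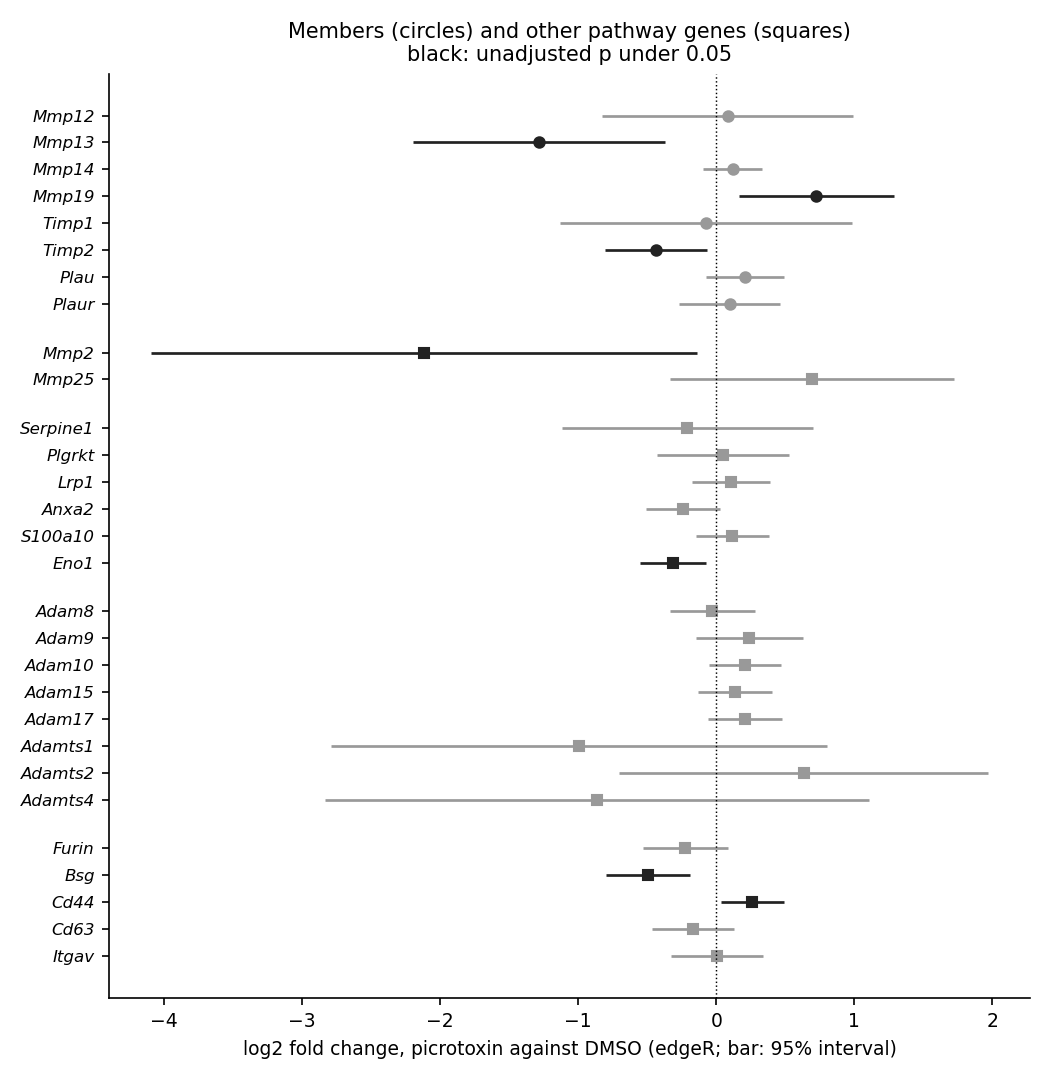
Log2 fold change of picrotoxin against DMSO (horizontal axis; edgeR estimate with its 95% interval) for the 8 tested members (circles) and 21 of the 22 tested pathway genes (squares), in black where the unadjusted p was under 0.05. Mmp3 is not drawn because its molecules were all in 1 library. The intervals of Mmp14, Plau and Plaur all include 0, as do those of the 8 ADAM and ADAMTS genes.

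As a description of how members vary between libraries, the genes with the most similar pattern were found for the 5 members with a mean of at least 10 normalised molecules, by Spearman correlation over 12 libraries among 3736 genes. For Timp2 these were Ncl (0.937) and Pabpc1 (0.902), which encode nucleolin and a poly(A)-binding protein. For Mmp14 they were Spty2d1 (0.853) and Cbx5 (0.832), for Mmp19 Ankrd40 (0.853) and Cd84 (0.832), for Plau Kpna4 (0.839) and Birc6 (0.797), and for Plaur the pseudogene Rps19-ps3 (0.874) and Akap13 (0.846). No gene was named for more than 1 member. The 12 points mix both treatment groups and differ in depth, all genes of a library share its depth, and the highest of 3736 correlations is large by selection.

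**Figure D4:**
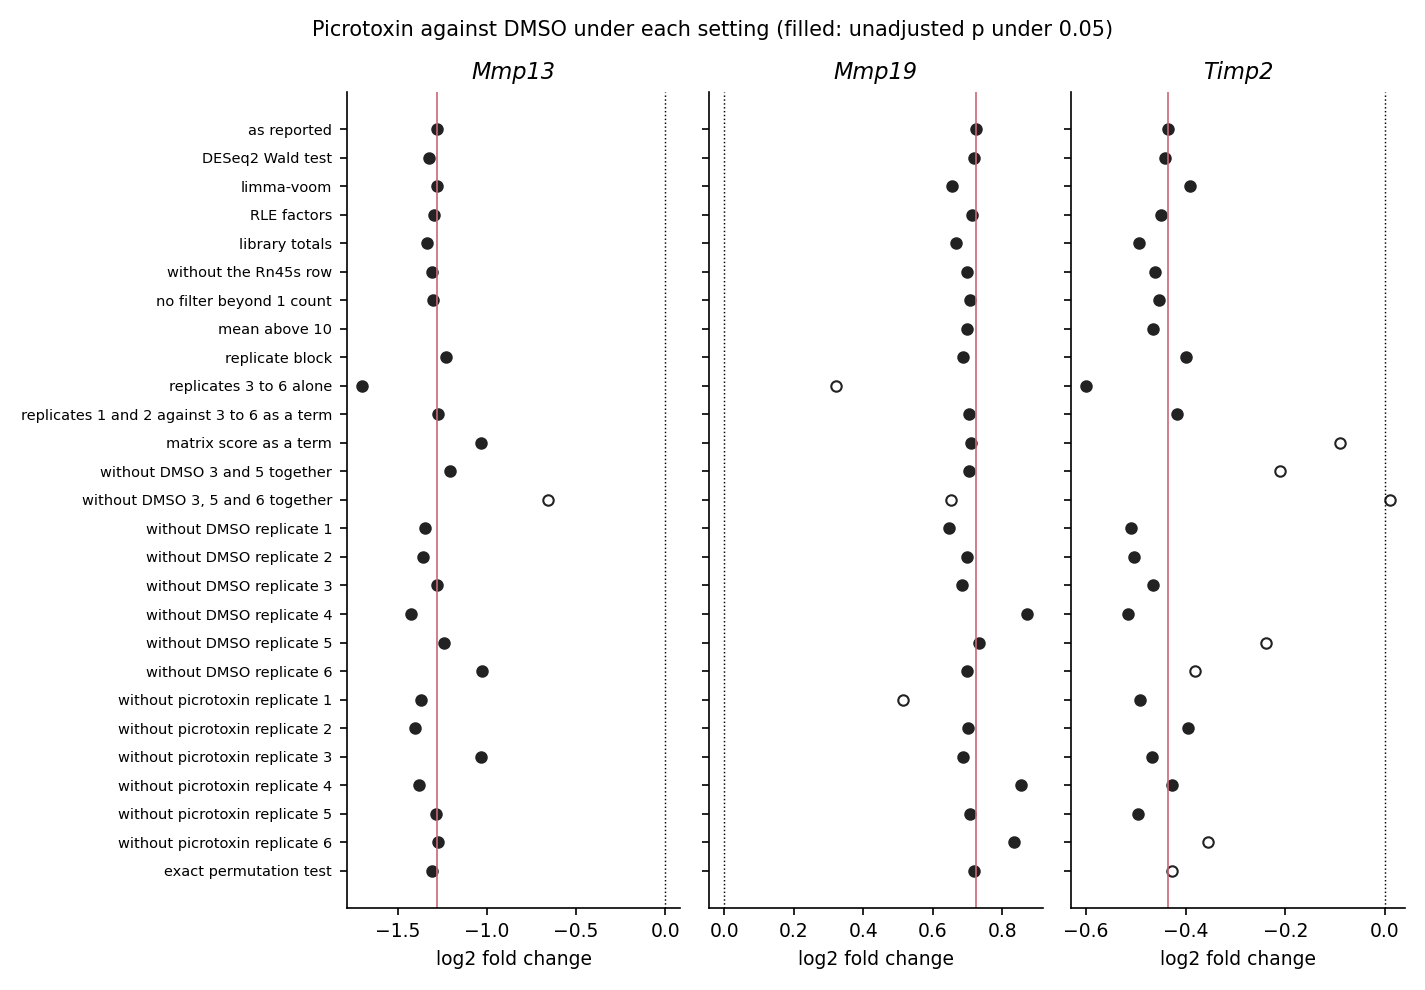
Log2 fold change (horizontal axes, each with its own range) of Mmp13, Mmp19 and Timp2 under each setting, with filled points where the unadjusted p was under 0.05 and a red line at the value reported above. Open points for Timp2 and Mmp13 include the setting without DMSO 3, 5 and 6, where Timp2 sits at 0.01 and Mmp13 at -0.66, and Mmp19 is open there too, without picrotoxin 1 and in replicates 3 to 6 alone. DMSO 3, 5 and 6 hold the highest values of Timp2 and Mmp13, so leaving them out had to shrink both differences.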

How the data were processed

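The authors deposited 1 table of counts, in whole molecules, for the 12 libraries, named by gene symbol. Per the labels, heat broke the RNA of 100 sorted cells into pieces, reverse transcription began at an oligo-dT primer that held a molecular barcode, and the cDNA was amplified and sequenced, so a count stands for a barcode and not a PCR read. Reads were mapped to mm10 with STAR per the submitters' processing notes, and the methods name refFlat as annotation. Handling of reads with several places, strand and barcode errors is not given in the sources used here. Spike-in RNAs were not used here, and 0 columns lacked a sample.

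Genes with a mean above 1 normalised molecule (counts divided by DESeq2 size factors) were tested, 9580 in all, with the quasi-likelihood test of edgeR 4.0.16 (TMM, R 4.3.3, Benjamini-Hochberg over all tested genes). The SE was the log2 fold change divided by the root of F. This matches the study's filter, and the study's DESeq2 rule was run with DESeq2 1.42.0. Voom used limma 3.58.1. Single values and marker shares were compared by exact two-sided permutation tests over 924 assignments of libraries, whose smallest p is 0.00216. These p-values were not adjusted. Shares of single libraries carry Wilson intervals, which cover counting error only. All 30 pairs of libraries within groups differed by more than counting noise (chi-square per degree of freedom 1.23 to 3.15), so none was counted as a copy. Scripts were tested on simulated data.

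The members, the pathway and marker lists and the alternatives were chosen with earlier results of these data known. Of each pathway list, the 2 tested genes with the highest mean and every gene with an unadjusted p under 0.05 were named, besides all 10 members. For each member with a mean of at least 10, the 2 genes most like it were added. The labels call libraries of a group independent preparations, numbered 1 to 6. Correlations of deviations between libraries of the same number were -0.0048 to 0.126, with 1 of 6 above 0.1, so the numbers were not taken as pairs. Genes sharing at least 100 bases at 98% identity were sought in the annotated transcripts. Alternatives covered normalisation, filters, test, covariates and left-out libraries.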

Additional observations from a re-analysis of the deposited data

Results flagged for a closer look

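In groups of 6 libraries, 51 gene or marker values were examined for a single library standing far from the others of its group, and 8 did. Chance flags about 1 in 20 groups of independent, normally distributed values, a rate that was not checked for counts near 0, and several of these values share a library. Among members, Mmp8 in picrotoxin 2 was at 4.25 normalised molecules, where the rest of its group ran from 0 to 1.15, which is 4 molecules. Mmp12 in picrotoxin 6 was at 31.1 against 1.06 to 10.5, with 29 molecules or 0.0132% of the library (Wilson 95% interval 0.00922 to 0.019). Mmp13 in picrotoxin 3 was at 0 against 2.14 to 3.19. Among other MMPs, Mmp3 in DMSO 5 was at 51.5 and at 0 in the other DMSO libraries, Mmp2 in DMSO 5 was at 14.7 against 0 to 5.12, and Mmp25 in DMSO 1 was at 6.24 against 1.02 to 2.98. Fibroblast and matrix markers in DMSO 5 made up 0.303% of molecules against 0.00857 to 0.0987% in the other DMSO libraries. MC38 epithelial markers, of which 4 of 6 were at 0 everywhere, made up 0.00637% in DMSO 1 against 0.00325 to 0.00441%. DMSO 5 accounts for 3 of the 8 values, Mmp2, Mmp3 and the matrix markers, which are high there together.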

How the results depend on the processing

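No member had an adjusted p under 0.05 under any setting run. The count of members with an unadjusted p under 0.05 was 2 to 3 with any 1 library left out, 4 of 10 with no filter beyond 1 count, where Mmp8 was added, and 0 without DMSO 3, 5 and 6 together. Of all tested genes, 6.4% to 8.65% passed with 1 library left out, 7.41% with no filter beyond 1 count and 4.95% without DMSO 3, 5 and 6. Of pathway genes, 2 to 6 passed with 1 library left out. The count was 7 of 38 with no filter beyond 1 count, 3 with DESeq2, limma-voom or a mean above 10, and 2 with the matrix score as a term, without DMSO 3 and 5, or without DMSO 3, 5 and 6. The share of all tested genes was 3.82% with DESeq2, 7.76% with limma-voom and 10.6% with a mean above 10. It was 5.78% with the matrix score as a term and 5.4% without DMSO 3 and 5. The median of members ran from -0.0017 to 0.1542 with 1 library left out. The log2 fold change of Mmp12 turned to -0.34 in voom, -0.33 with the matrix score, -0.27 without DMSO 3 and 5 and -0.27 without DMSO 3, 5 and 6, and ran from -0.7382 to 0.414 with 1 library left out. Timp1 turned to 0.68, 0.37 and 0.70 under the last 3 of these, and ran from -0.5383 to 0.197. Timp2 turned to 0.0093 without DMSO 3, 5 and 6, the libraries with its highest values. Its unadjusted p in edgeR was above 0.05 without DMSO 5, DMSO 6 or picrotoxin 6 (0.168, 0.0587 and 0.069). The cause was not tested. The lower share of fibroblast and matrix markers in picrotoxin libraries, -0.0653 percentage points (exact permutation p = 0.134), ran from -0.0797 to -0.0208 with p from 0.039 to 0.275. With the replicate number as a block, 3 members passed without adjustment, as without it, and 6 pathway genes, against 7.75% of all tested genes. Library totals in place of TMM lowered the share of higher calls over all genes from 47.6% to 29.5% (median log2 fold change -0.0606 against -0.0052), and leaving out the Rn45s row to 39.2%. Of all genes, 740 had an unadjusted p under 0.05 in edgeR and 366 in DESeq2. Members with under 50 molecules in all, Mmp8, Mmp9 and Timp1, are limited by depth, and Mmp13, with 51, is hardly less so.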

Other observations

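Ratios of members within a library were computed after the values had been seen. For each 100 molecules of Mmp14, libraries held 43.5 ± 16.0 (SD, n = 6) molecules of Timp2 in DMSO and 29.7 ± 4.64 (n = 6) with picrotoxin (exact permutation p = 0.0498, unadjusted over 4 ratios), with all 6 picrotoxin libraries below the DMSO mean. For Mmp13 the values were 5.37 ± 2.76 and 2.01 ± 1.05 (exact permutation p = 0.00649), and for Mmp19 7.49 ± 2.27 and 11.1 ± 3.56 (exact permutation p = 0.0606). The ratio of Plaur to 100 molecules of Plau was 59.7 ± 19.1 and 54.4 ± 17.8 (exact permutation p = 0.623). These ratios do not depend on the scaling of libraries, but they carry the same high values of DMSO 3, 5 and 6 for Timp2 and Mmp13.

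Of the 13 fibroblast and matrix markers 10 were tested, and 9 had an unadjusted p under 0.05 in edgeR, all lower with picrotoxin, where 4.05% of all tested genes were lower at that limit, with 0 passing adjustment. These markers were high together in DMSO 3, 5 and 6, so the 9 calls are not independent of each other. The marker list was chosen with earlier results of these data known. Compared over libraries, the share of this list gave an exact permutation p of 0.134. The shares of the other lists gave exact permutation p-values of 0.351 for monocyte, 0.47 for endothelial, 0.861 for neutrophil and 0.0649 for MC38 epithelial markers. At an unadjusted p under 0.05 in edgeR, 1 of 10 tested macrophage markers and the 1 tested MC38 epithelial marker were higher with picrotoxin. Of 5 tested monocyte markers 1 was higher and 1 lower, and 0 of 2 neutrophil and 0 of 1 endothelial markers passed.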
